A study of Mus musculus with 4 samples.

Results

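The 10 genes described here encode the thin filament of the heart muscle cell and the proteins that set its ends: *Actc1*, *Tpm1*, *Tpm2*, *Tnnt2*, *Tnni3*, *Tnni1*, *Tnnc1*, *Lmod2*, *Tmod1* and *Gsn*. They were taken by symbol from the 23337 genes listed in the normalized count files, and all 10 were found there. RNA-seq was carried out on the hearts of 4 groups of C57BL6/J mice. The controls were PIMTfl/fl mice of 2 and 6 months, whose PIMT gene (*Tgs1*) has exons 3 and 4 between loxP sites. The csPIMT-/- mice of the same ages carry the same floxed alleles and an α-MyHC-Cre transgene, whose α-myosin heavy chain promoter drives Cre recombinase in cardiomyocytes. The controls lack Cre, so an effect of Cre itself and of the deletion cannot be told apart. RNA of 5 hearts, from males and females, was pooled to 1 library for each group. No group therefore has a replicate, and a difference between 2 libraries holds the differences between their pools of mice as well as the genotype.

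The thin filament is a double strand of actin along which tropomyosin and the troponin complex lie at regular intervals. Troponin C binds calcium, troponin I holds the filament in its inhibited state and troponin T ties both to tropomyosin, so that calcium release lets myosin heads bind actin. Tropomodulin caps the pointed end of the filament in the middle of the sarcomere, leiomodin nucleates and lengthens filaments there, and the opposite, barbed end is capped by CapZ at the Z disc. Gelsolin severs and caps actin filaments in many cell types. The heart before birth uses slow skeletal troponin I (*Tnni1*), which gives way to cardiac troponin I (*Tnni3*), and skeletal actin (*Acta1*) is a well-known companion of cardiac actin (*Actc1*) in the fetal and the loaded heart.

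Between 29823073 and 40705783 reads per library lay on genes. The 10 genes held 1.77% and 1.57% of them in the 2-month and 6-month controls and 2.42% and 2.10% in csPIMT-/- hearts. Titin, *Ttn*, held 5.42% and 6.84% of the reads in the controls and 2.91% and 1.90% in csPIMT-/- hearts. Ribosomal *Rn45s* held 0.778% and 0.514% in the controls and 1.58% and 1.44% in csPIMT-/- hearts. The bearing of both on the ratios below was not tested. *Tgs1*, the targeted gene, had 580 and 816 normalized counts in the controls of 2 and 6 months and 160 and 162 in csPIMT-/- hearts. Both csPIMT-/- libraries thus lay below both controls, the direction their labels give. *Tgs1* had a ratio of 0.276 (2 months) and 0.199 (6 months) to the control of the same age, but 0.603 and 0.495 less the trend with GC content, described below. Of the 50-base windows of its transcript 13.1% also occur in another gene, *Gm5117*. The 8 cardiomyocyte markers were present in every library, with summed normalized counts of 1160939 to 1511788. Some libraries differed in atrial RNA, in RNA of other tissues and in sex. The atrial markers *Myl7*, *Myl4* and *Sln* were lowest in the 2-month control and highest in the 2-month csPIMT-/- library. *Myl7* had 1045 and 17299 normalized counts in the controls of 2 and 6 months and 42908 and 8084 in csPIMT-/- hearts. The summed count of 5 lung markers was 1160 in the 2-month csPIMT-/- library and 1.73 to 17.7 in the other 3, and that of 3 brown fat markers was 4356 against 1108 to 2618. *Xist* had 805 normalized counts in the 2-month control and 6369 to 25639 in the others, and the Y-linked *Uty* had 2254 against 87.5 to 300. RNA from sex-linked genes thus differed between the pools of males and females. Globin genes *Hba-a1* and *Hba-a2* were listed at 0 in all 4 libraries, while *Alas2* of red cell precursors had 2313 to 12283. In RNA of whole hearts, fewer cells of a type and less RNA per cell cannot be told apart.

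The stretches of 250 bases before the transcription start (RefSeq, GRCm38.p6) were searched on both strands for motifs of cardiac and muscle promoters. They are shown for 4 genes around which the results turn. *Actc1* is the main actin of the heart and *Tnnc1* and *Tnnt2* are subunits of 1 complex whose RNAs parted in csPIMT-/- hearts, while *Tmod1* was lower at both ages. Capitals mark a motif match: CArG, the binding sequence of serum response factor, in *Actc1*; MCAT (CATTCC on either strand) in *Tnnc1*, *Tnnt2* and *Tmod1*; and the GATA motif, AGATAA on either strand, as the more upstream match in *Tnnt2*. The sequences lie at chr2:114052876-114053125 on the minus strand (*Actc1*), chr14:31208062-31208311 on the plus strand (*Tnnc1*), chr1:135836084-135836333 on the plus strand (the first of 2 listed starts of *Tnnt2*) and chr4:46038972-46039221 on the plus strand (*Tmod1*).
Actc1: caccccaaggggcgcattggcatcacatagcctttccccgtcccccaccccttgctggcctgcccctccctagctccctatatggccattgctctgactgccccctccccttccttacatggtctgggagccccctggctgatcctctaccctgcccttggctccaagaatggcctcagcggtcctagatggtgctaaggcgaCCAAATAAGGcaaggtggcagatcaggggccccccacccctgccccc
Tnnc1: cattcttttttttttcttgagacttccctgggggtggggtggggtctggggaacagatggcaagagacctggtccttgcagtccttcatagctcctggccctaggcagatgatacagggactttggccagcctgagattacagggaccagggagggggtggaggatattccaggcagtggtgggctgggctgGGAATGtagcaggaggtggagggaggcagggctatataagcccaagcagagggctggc
Tnnt2: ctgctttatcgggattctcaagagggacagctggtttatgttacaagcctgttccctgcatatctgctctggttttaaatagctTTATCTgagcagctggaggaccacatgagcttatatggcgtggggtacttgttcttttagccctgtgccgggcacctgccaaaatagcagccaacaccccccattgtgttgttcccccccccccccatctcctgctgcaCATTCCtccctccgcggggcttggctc
Tmod1: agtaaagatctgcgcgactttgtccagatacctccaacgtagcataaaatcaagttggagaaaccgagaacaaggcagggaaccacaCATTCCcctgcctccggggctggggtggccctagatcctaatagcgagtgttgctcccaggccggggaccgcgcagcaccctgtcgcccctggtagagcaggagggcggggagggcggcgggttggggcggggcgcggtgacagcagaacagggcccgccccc
The CArG match of *Actc1* begins 47 bases before the start. The MCAT matches begin 58 bases before the start of *Tnnc1*, 27 before that of *Tnnt2* and 163 before that of *Tmod1*, and *Tpm1* has one at 56. An MCAT match was thus found for 4 of the 10 genes, beside 12.6% of 32851 promoters of the same length, and it was present in genes whose RNA was higher in csPIMT-/- hearts and in genes whose RNA was lower. Here and below a gene was counted if any of its listed promoters matched, while the shares are of single promoters. *Tnnt2*, *Tnni1* and *Gsn* have more than 1 listed promoter, so the counts of genes and the shares are not quite alike. CArG was found in 1 of the 10 genes and 1.47% of promoters, and AGATAA in 1 of the 10 and 9.99%. MEF2 was found in none of the 10 and 2.92% of promoters, and TATAAA, also searched on both strands, in none of the 10 and 12.4%. The matches use letters alone and say nothing of binding in these hearts.

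Values below are the authors' normalized counts, read counts scaled between libraries by the median of ratios, and a ratio is csPIMT-/- over the PIMTfl/fl control of the same age. Intervals are exact 95% intervals from the reads of the 2 libraries. They cover counting error only and not the variation between mice or pools. At 2 months, 2 of the 10 genes were more than 2-fold higher in csPIMT-/- hearts (*Gsn* and *Tpm2*) and 2 were more than 2-fold lower (*Tnni1* and *Tmod1*). Of all 15152 genes compared at that age, 17.0% lay more than 2-fold above and 22.2% more than 2-fold below the control. At 6 months 2 of the 10 were more than 2-fold higher (*Gsn* and *Tnni1*) and 1 was lower (*Tmod1*), beside 16.7% and 24.7% of 15218 genes. The median log2 ratio of the 10 genes was 0.21 at 2 months and 0.52 at 6 months, and that of all genes was -0.0034 and 0.0034. With 1 library per group these shares and medians are a description and carry no test.

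**Figure D1:**
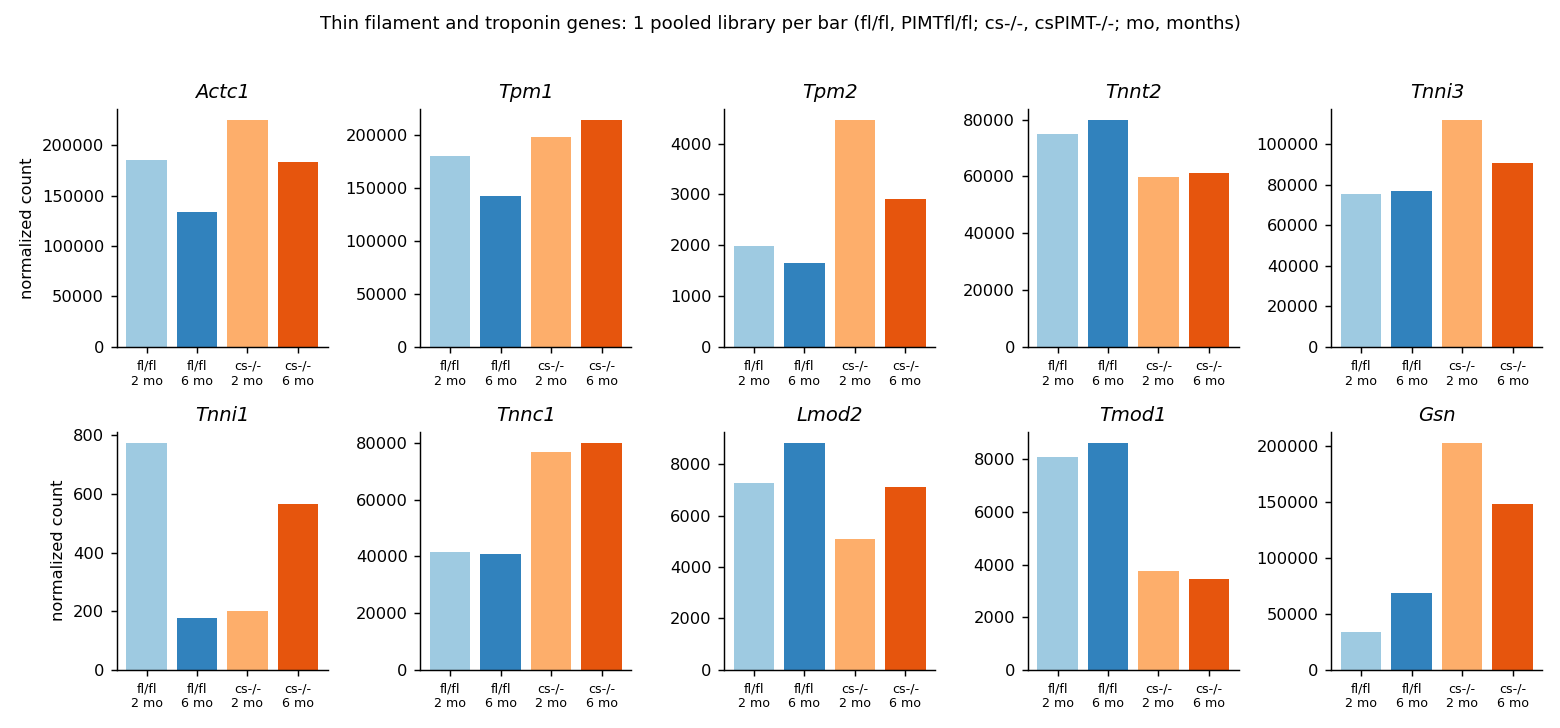
Normalized counts (linear axes from 0) of the 10 genes, 1 bar for each pooled library: PIMTfl/fl of 2 and 6 months in blue, csPIMT-/- of 2 and 6 months in orange. *Tnnc1* and *Gsn* are higher in both csPIMT-/- libraries than in both controls, *Tmod1* and *Tnnt2* are lower in both, and *Tnni1* is high in the 2-month control and the 6-month csPIMT-/- library.

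Cardiac actin, *Actc1* (chr2:114047282-114053548, GRCm38, minus strand), was among the most read of the 10 genes. It had 184864 and 134001 normalized counts in the controls of 2 and 6 months, against 224650 and 183020 in csPIMT-/- hearts. The csPIMT-/- library was the higher at each age, but the 2-month control lay above the 6-month csPIMT-/- library, so the genotypes overlapped. The ratio was 1.22 (1.21 to 1.22) at 2 months and 1.37 (1.36 to 1.38) at 6 months, while the older control had 0.725 of the younger; less its trend with GC content, described below, the ratio was 0.985 and 1.05. *Tpm1* (chr9:67022590-67049406), the main tropomyosin of heart muscle, had 180506 and 142296 normalized counts in the controls and 198458 and 214175 in csPIMT-/- hearts. Both csPIMT-/- libraries lay above both controls, by a ratio of 1.10 (1.09 to 1.11) at 2 months and 1.51 (1.50 to 1.51) at 6 months. Between the controls, the older held 0.788 of the *Tpm1* count of the younger. The direction at 2 months turned for both genes when the libraries were scaled by the 8 cardiomyocyte markers, to a ratio of 0.813 for *Tpm1* and 0.899 for *Actc1*, and for *Actc1* also without its trend with transcript length (0.886).

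*Tpm2* (chr4:43514711-43523765), the β-tropomyosin that is more usual in slow skeletal and smooth muscle, was measured at a far lower level. It had 1988 and 1657 normalized counts in the controls and 4462 and 2902 in the csPIMT-/- libraries, all of the csPIMT-/- values above the control values. The ratio was 2.24 (2.13 to 2.37) at 2 months and 1.75 (1.65 to 1.86) at 6 months. Of 4 smooth muscle markers 3 were also higher in csPIMT-/- hearts at 2 months, where their median ratio was 3.64, and 1 of 4 was higher at 6 months, where it was 0.788. The 4 atrial markers were all higher at 2 months, with a median ratio of 45.2, and 1 of 4 at 6 months, with 0.609. None of the smooth muscle and atrial markers was at 0 in any library, their summed counts ran from 27223 to 62287 and from 40736 to 348345, and their part in the *Tpm2* result was not tested.

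The 3 adult subunits of cardiac troponin did not move as 1 group. *Tnnc1* (chr14:31208312-31211729), cardiac troponin C, had 41613 and 40743 normalized counts in the controls, which were nearly alike, and 77021 and 80044 in the csPIMT-/- libraries. Its ratio was 1.85 (1.83 to 1.87) at 2 months and 1.96 (1.94 to 1.99) at 6 months, just short of 2-fold each time. The ratio of *Tnnc1* was 1.27 and 1.50 less the trend with transcript length, and 1.37 and 2.05 when scaled by cardiomyocyte markers. *Tnni3* (chr7:4518305-4524229), cardiac troponin I, also lay higher in both csPIMT-/- libraries, with 75289 and 76929 normalized counts in the controls and 111933 and 90803 in csPIMT-/- hearts. The ratio of *Tnni3* was 1.49 (1.47 to 1.50) at 2 months and 1.18 (1.17 to 1.19) at 6 months, but 0.970 and 0.763 less the trend with GC content, and 0.894 at 6 months less that with transcript length. *Tnnt2* (chr1:135836354-135852260), cardiac troponin T, lay on the other side, at 74953 and 79809 normalized counts in the controls and 59856 and 61344 in csPIMT-/- hearts. Both csPIMT-/- values were below both control values, by a ratio of 0.799 (0.790 to 0.808) at 2 months and 0.769 (0.761 to 0.777) at 6 months. *Tnnc1* overlaps *Nisch* on the other strand and *Tnni3* overlaps *Dnaaf3* on the same strand. Among the rest of the 10 genes, *Actc1* overlaps *A530058N18Rik* and *Tmod1* overlaps *Tstd2* on the other strand, and *Gsn* overlaps *Gm43128* on the same strand. The strand setting of the counting is not given in the sources used here, so reads of such partners may not have been kept apart.

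*Tnni1* (chr1:135779434-135810989), slow skeletal troponin I, was the only one of the 10 genes with ratios on opposite sides of 1 at the 2 ages. Its normalized count was 774 in the 2-month control, 178 in the 6-month control, 200 in the 2-month and 567 in the 6-month csPIMT-/- library. The 2-month control and the 6-month csPIMT-/- library were thus high and the other 2 low, whatever the genotype. The ratio was 0.258 (0.217 to 0.305) at 2 months and 3.19 (2.71 to 3.77) at 6 months. The 7 skeletal muscle markers took the same course. Their summed normalized count was 982 and 215 in the controls and 118 and 869 in the csPIMT-/- libraries, 5 of 7 were below a ratio of 1 at 2 months and 6 of 7 above it at 6 months. The largest of them, *Myh3*, an embryonic skeletal myosin, had 476 and 93.2 normalized counts in the controls, 460 in the 6-month csPIMT-/- library and 0 in the 2-month csPIMT-/- library. The part of skeletal muscle RNA in the *Tnni1* values was not tested.

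**Figure D2:**
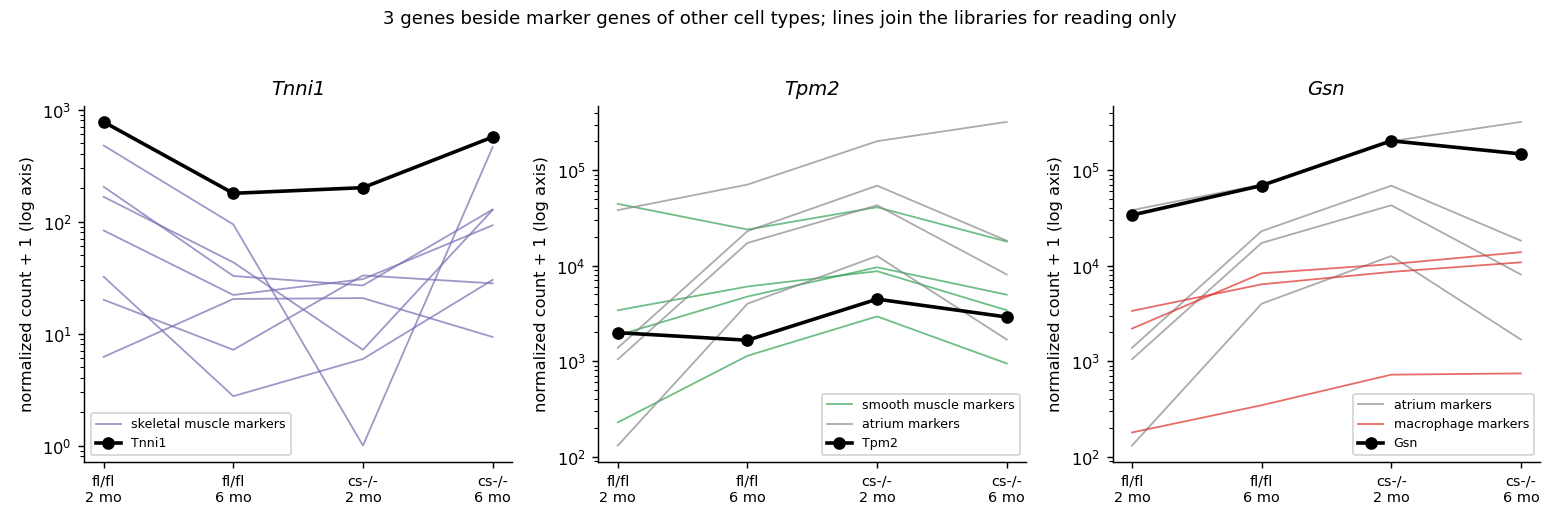
Normalized count + 1 (log axis) in the 4 libraries for *Tnni1* (left), *Tpm2* (middle) and *Gsn* (right) in black, with marker genes of other cell types as thin lines; the joining lines only guide the eye. *Tnni1* and most skeletal muscle markers are high in the 2-month control and the 6-month csPIMT-/- library, and the 3 macrophage markers lie in the order of the libraries from 2-month control to 6-month csPIMT-/-.

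At the pointed end, *Tmod1* (chr4:46038935-46116032), the tropomodulin of striated muscle and red cells, had the lowest ratio of the genes with the same direction at both ages. It had 8085 and 8620 normalized counts in the controls and 3764 and 3451 in the csPIMT-/- libraries. The controls differed by a ratio of 1.07 (1.04 to 1.10), and both csPIMT-/- libraries lay far below them. The ratio was 0.466 (0.447 to 0.485) at 2 months and 0.400 (0.385 to 0.416) at 6 months. Of the 50-base windows of the *Tmod1* transcript 3.57% occur in transcripts of other genes, and none did for the other 9 genes. *Lmod2* (chr6:24597762-24605414), the cardiac leiomodin, had 7249 and 8824 normalized counts in the controls and 5072 and 7106 in csPIMT-/- hearts. Its ratio was 0.700 (0.674 to 0.726) at 2 months and 0.805 (0.781 to 0.831) at 6 months, and the same gene was 1.22 times higher in the older than in the younger control.

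*Gsn* (chr2:35256380-35307892), gelsolin, had the highest ratios of the 10 genes at 2 months. It had 33885 and 69051 normalized counts in the controls and 203108 and 148060 in the csPIMT-/- libraries, and its csPIMT-/- values lay above both control values. The ratio was 5.99 (5.93 to 6.06) at 2 months and 2.14 (2.13 to 2.16) at 6 months. The older control itself was 2.04 times (2.01 to 2.06) as high as the younger, while the older csPIMT-/- library held 0.729 of the count of the younger. *Gsn* is also expressed outside cardiomyocytes. The 3 macrophage markers in the files were all higher in csPIMT-/- hearts at both ages, with summed normalized counts of 5736 and 15039 in the controls and 19711 and 25438 in csPIMT-/- hearts. The 6 fibroblast markers summed to 267752 and 140838 in the controls and 188680 and 191257 in csPIMT-/- hearts, with 2 of 6 higher at 2 months and 5 of 6 at 6 months. The 4 endothelial markers summed to 51240 and 35226 in the controls and 34538 and 38755 in csPIMT-/- hearts. Of the smooth muscle and atrial markers given above, 3 of 4 and 4 of 4 were higher at 2 months, as *Gsn* was. At 6 months, where *Gsn* was again higher, only 1 of 4 in each list was. *Tagln* had 1866 and 4751 normalized counts in the controls and 9628 and 4967 in csPIMT-/- hearts, and *Cnn1* 228 and 1138 against 2943 and 946. *Myh11* had 3413 and 6050 against 8754 and 3415, and *Acta2* 44406 and 23928 against 40962 and 17895. The 4 atrial markers summed to 40736 and 114957 in the controls and 325567 and 348345 in csPIMT-/- hearts. Most of each sum was *Nppa*, with 38182 and 70659 in the controls and 201180 and 320296 in csPIMT-/- hearts. At 2 months the other atrial markers were also higher in csPIMT-/- hearts: *Myl7* had 42908 against 1045 in the control, *Myl4* 68851 against 1379 and *Sln* 12629 against 130. At 6 months they were lower in csPIMT-/- hearts: *Myl7* had 8084 against 17299 in the control, *Myl4* 18281 against 23002 and *Sln* 1684 against 3996. None of the markers of these 5 cell types was at 0, and their part in the *Gsn* values was not tested.

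**Figure D3:**
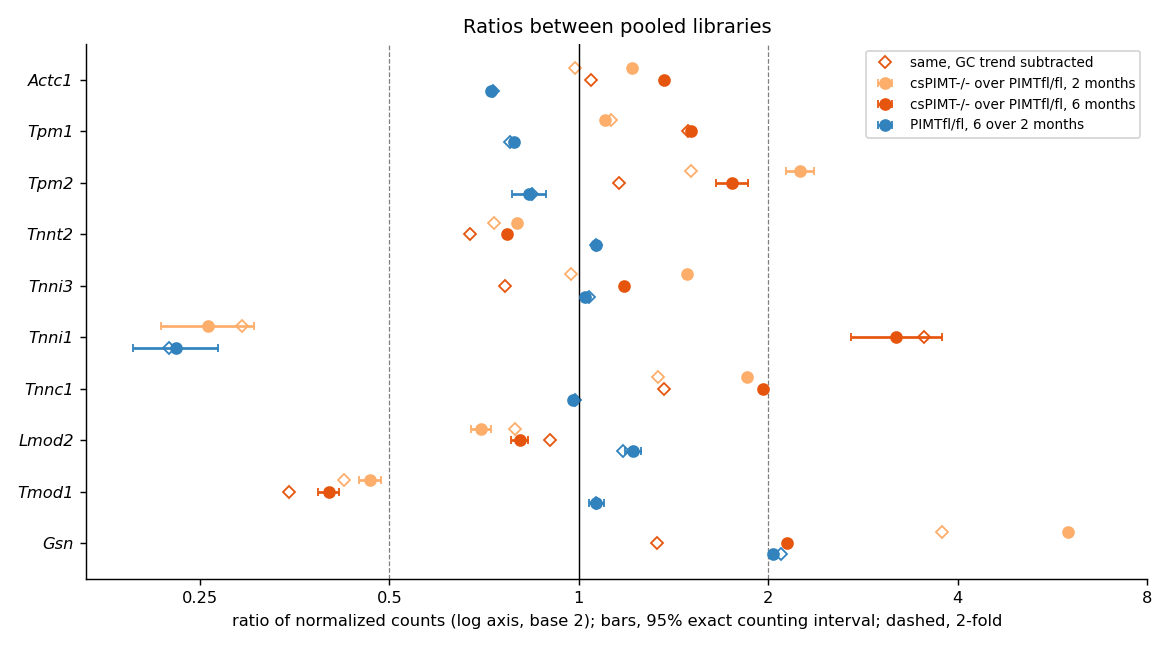
Ratio of normalized counts for each of the 10 genes (log axis, base 2): csPIMT-/- over PIMTfl/fl at 2 months (light orange), at 6 months (dark orange) and the 6-month over the 2-month control (blue). Bars are exact 95% counting intervals, open diamonds are the ratio less its trend with GC content, and dashed lines mark 2-fold. *Tmod1* lies below 0.5 and *Tnnc1* and *Tpm2* lie above 1 at both ages with either marker, while *Actc1* and *Tnni3* come to about 1 or below it once the GC trend is subtracted.

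Between the ages, the control libraries differed more than 2-fold in 2 of the 10 genes. *Tnni1* was lower in the older control, at 0.229 (0.196 to 0.268) of the younger, and *Gsn* was higher. Among all 15132 genes compared between the controls, 4.53% were past 2-fold in the lower direction and 8.72% in the higher. Between the csPIMT-/- libraries 1 of the 10 was past 2-fold, *Tnni1*, which was 2.84 times (2.38 to 3.40) as high at 6 months, beside 8.02% lower and 9.48% higher of 15057 genes. The other genes lay between 0.650 (*Tpm2*) and 1.40 (*Lmod2*) in that comparison.

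Quantities formed within a library need no scaling between libraries. *Tnnc1* reads per *Tnnt2* read came to 0.555 (2 months) and 0.511 (6 months) in the controls and to 1.29 and 1.30 in csPIMT-/- hearts. The quotient was therefore 2.32 times the control at 2 months and 2.56 times at 6 months, while the controls differed by a factor of 0.920. *Tnni3* per *Tnnt2* was 1.0 and 0.964 in the controls and 1.87 and 1.48 in csPIMT-/- hearts. That was 1.86 times the control at 2 months and 1.54 times at 6 months, but 1.32 and 1.13 times with the GC trend subtracted. *Tnnc1* per *Tnni3* was 0.553 and 0.530 in the controls against 0.688 and 0.882 in csPIMT-/- hearts. *Tnnc1* was thus higher relative to both its partners in both csPIMT-/- libraries. *Tmod1* per *Lmod2* was 1.12 and 0.977 in the controls and 0.742 and 0.486 in csPIMT-/- hearts. *Tpm1* per *Actc1* was 0.976 and 1.06 in the controls and 0.883 and 1.17 in csPIMT-/- hearts, on both sides of the control values. With the GC trend subtracted it was 0.871 and 0.934 in the controls and 0.994 and 1.33 in csPIMT-/- hearts, which did not overlap.

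Shares among related genes differed in whether they divided the genotypes. *Acta1* (chr8:123891769-123894751), skeletal actin, held 11.0% (10.9 to 11.1) of the reads of *Acta1* and *Actc1* together in the 2-month control and 15.3% (15.2 to 15.5) in the 6-month control. In csPIMT-/- hearts it held 35.2% (35.0 to 35.4) at 2 months and 34.0% (33.8 to 34.1) at 6 months, and the genotypes did not overlap. *Acta1* shares 2.22% of its 50-base windows with other genes. The share of *Tpm2* among reads of *Tpm2* and *Tpm1* was 1.09% (1.05 to 1.13) and 1.15% (1.10 to 1.20) in the controls and 2.20% (2.13 to 2.27) and 1.34% (1.29 to 1.39) in csPIMT-/- hearts. With the GC trend subtracted the direction of the *Tpm2* share turned at 6 months, to 1.10% in csPIMT-/- hearts beside 1.33% and 1.41% in the controls. *Tnni1* held 1.02% (0.953 to 1.09) and 0.230% (0.200 to 0.264) of the troponin I reads in the controls and 0.178% (0.152 to 0.208) and 0.621% (0.570 to 0.675) in csPIMT-/- hearts. Cardiac troponin I therefore made up nearly all troponin I reads in every library.

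**Figure D4:**
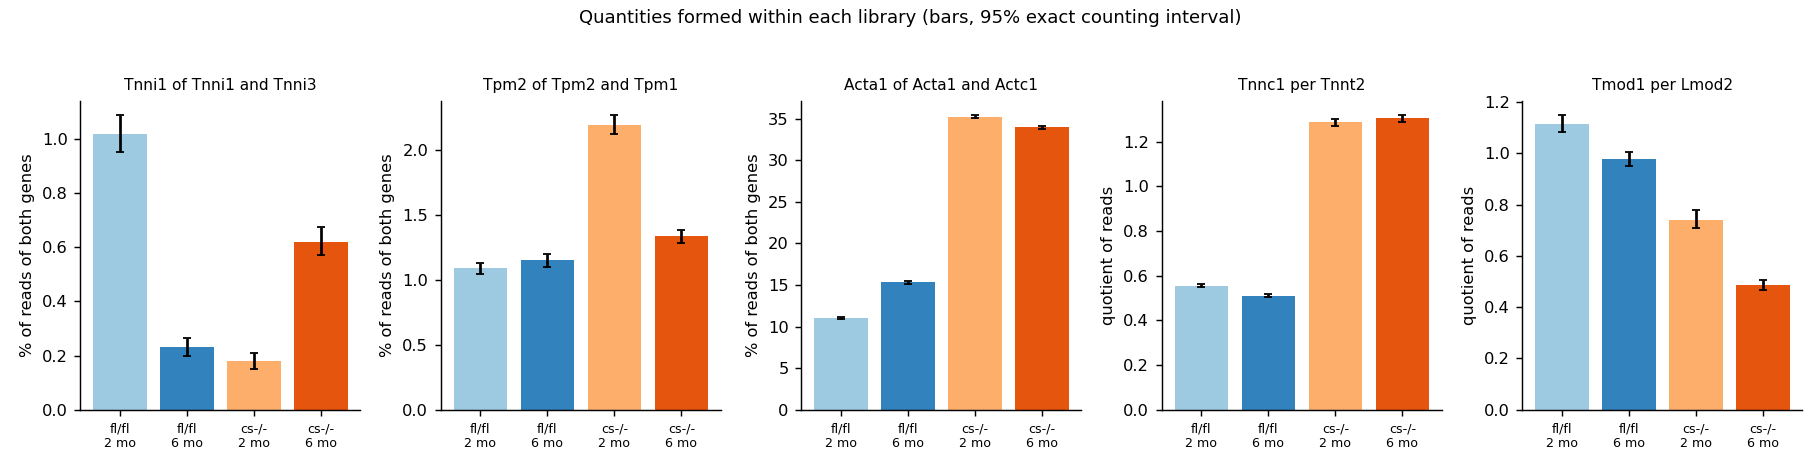
Quantities formed from reads within each of the 4 libraries (linear axes from 0; bars, exact 95% counting intervals): the share of *Tnni1* in troponin I reads, of *Tpm2* in *Tpm1* and *Tpm2* reads and of *Acta1* in *Acta1* and *Actc1* reads, in percent, and the quotients of *Tnnc1* to *Tnnt2* and *Tmod1* to *Lmod2* reads. The *Acta1* share (34.0% and 35.2%) and the *Tnnc1* to *Tnnt2* quotient (1.29 and 1.30) stand apart from the controls in both csPIMT-/- libraries; the *Tnni1* share does not follow genotype.

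Per kilobase of transcript, *Actc1* was the highest of the 10 genes and *Tnni1* the lowest in each of the 4 libraries. The level of *Actc1* was 125502 and 90972 normalized counts per kilobase in the controls and 152512 and 124250 in csPIMT-/- hearts, and that of *Tnni1* ran from 154 to 673. *Tnnc1* stood at rank 5 in both controls, with 57716 and 56509 per kilobase, and at rank 3 in both csPIMT-/- libraries, with 106826 and 111018. *Tnnt2* went the other way, from rank 4 (62461 and 66508) to rank 6 (49880 and 51120). *Gsn* moved from rank 6 to rank 5 and reached 77909 and 56793 per kilobase, above *Tnnt2*. With the lengths of the 2 transcripts allowed for, *Tnnc1* per *Tnnt2* was 0.924 and 0.850 in the controls and 2.14 and 2.17 in csPIMT-/- hearts. With 1 library per group the order of neighbours has no spread to be judged by.

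The genotype over both ages was tested with limma on log2(normalized count + 1), with age in the model and p-values adjusted over 14847 genes. With 4 libraries it has 1 residual degree of freedom and borrows its variance from other genes. A difference that changes with age counts as error in it, and its p-values rest on the spread among these 4 pools. Of all genes, 11.0% were called higher and 17.5% lower in csPIMT-/- hearts at an adjusted p below 0.05. Of the 10 genes, 3 were called higher and 1 lower. *Tmod1* fell, with a log2 difference of -1.21 (SE 0.202, limma adjusted p = 0.0205). *Gsn* rose by 1.84 (SE 0.427, limma adjusted p = 0.0358), *Tpm2* by 0.99 (SE 0.217, limma adjusted p = 0.0325) and *Tnnc1* by 0.93 (SE 0.246, limma adjusted p = 0.0474). The other 6 did not pass. Their log2 differences were 0.37 (SE 0.314) for *Actc1*, 0.36 (SE 0.329) for *Tpm1*, 0.41 (SE 0.277) for *Tnni3*, -0.35 (SE 0.255) for *Tnnt2*, -0.41 (SE 0.201) for *Lmod2* and -0.14 (SE 0.859) for *Tnni1*, with limma adjusted p-values from 0.174 for *Lmod2* to 0.912 for *Tnni1*. The intervals these errors imply are wide, and a p-value over the threshold does not show that a gene was alike in both genotypes.

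With all 4 libraries but age taken out of the model, a fit chosen after seeing the data, the same 4 genes were called, with limma adjusted p-values of 0.0142 to 0.0394. Leaving out a library also took age out of the model. It left 1 genotype with a single library, which is assumed to vary like the 2 of the other genotype. A call lost there does not by itself mean a smaller difference. Some differences were smaller all the same, such as those of *Gsn* and *Tpm2* without the 2-month csPIMT-/- library. That library also held the most RNA of *Myl7*, *Myl4* and *Sln*, and the 2-month control the least. Without the 2-month csPIMT-/- library, which held the lung and brown fat RNA, the log2 difference was -1.27 for *Tmod1* (limma adjusted p = 0.0350), 0.96 for *Tnnc1* (limma adjusted p = 0.0518), 1.61 for *Gsn* (limma adjusted p = 0.0738) and 0.68 for *Tpm2* (limma adjusted p = 0.105). Without the 2-month control, which held the most Y-linked RNA, it was -1.26 for *Tmod1* (limma adjusted p = 0.0477), 1.12 for *Tpm2* (limma adjusted p = 0.0903), 1.33 for *Gsn* (limma adjusted p = 0.0960) and 0.95 for *Tnnc1* (limma adjusted p = 0.139). In that fit the differences of *Tmod1*, *Tpm2* and *Tnnc1* were no smaller than with all libraries, and that of *Gsn* was smaller. Without the 6-month control *Gsn* passed (2.36, limma adjusted p = 0.0387), and *Tmod1* was -1.17, *Tnnc1* 0.92 and *Tpm2* 0.86. Without the 6-month csPIMT-/- library *Tmod1* (-1.15, limma adjusted p = 0.0363) and *Tpm2* (1.30, limma adjusted p = 0.0374) passed, and *Gsn* was 2.07 and *Tnnc1* 0.90. *Tnnc1* lost its call with TMM scaling (limma adjusted p = 0.0525) and with no filter on low values (limma adjusted p = 0.0645), at nearly the same log2 difference. None of the 10 genes was called, nor was any other gene, when the GC trend was subtracted or when the variance was given no trend with the mean, and *Tmod1* then had limma adjusted p-values of 0.0951 and 0.0765. At an unadjusted limma p under 0.05, *Tmod1* alone of the 10 passed with the GC trend subtracted, and 1 lower and 3 higher genes passed with no mean trend.

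The log2 ratio of csPIMT-/- over control went with the GC content of the transcript across all genes, with a Spearman rho of 0.581 at 2 months and 0.608 at 6 months, and of -0.269 between the controls. With transcript length rho was -0.307 at 2 months, -0.236 at 6 months and 0.018 between the controls. These genes share their 2 libraries, so rho is a description. The 10 genes had GC contents of 48.6% to 57.1%. After a smooth curve of the ratio on GC content was subtracted, *Tmod1* had a ratio of 0.423 at 2 months and 0.346 at 6 months, and *Tnnt2* 0.733 and 0.671, so both were lower than before. *Tnnc1* kept 1.34 and 1.37, *Gsn* 3.77 and 1.33 and *Tpm2* 1.51 and 1.16. *Tpm1* stayed at 1.12 and 1.49. Past 2-fold in this way were, of the 10 genes, *Tnni1* and *Tmod1* lower and *Gsn* higher at 2 months, beside 11.4% and 14.8% of all genes, and *Tmod1* lower and *Tnni1* higher at 6 months, beside 13.0% and 14.1%. The direction of *Tnni3* at both ages, and that of *Actc1* at 2 months, turned. The quotient of *Tnnc1* to *Tnnt2* was still 1.83 times the control at 2 months and 2.04 times at 6 months. Whether the GC trend arose in the libraries or in the hearts was not tested.

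Another 42 genes of the thin filament, its capping and its regulation were followed as lists, and 39 of them had enough reads to be compared. Past 2-fold were 6 lower and 5 higher of the 39 at 2 months, beside 22.2% lower and 17.0% higher of all genes compared. At 6 months 8 were lower and 7 higher, beside 24.7% and 16.7%. The same direction was kept past 2-fold at both ages by 6 lower and 2 higher genes. Of 14781 genes compared at both ages, 2342 were lower and 1121 higher in this way. Among the 5 other actins only *Acta1* was more than 2-fold higher at both ages, from 22823 and 24275 normalized counts in the controls to 122146 and 94112 in csPIMT-/- hearts. Its ratio was 5.35 (5.28 to 5.42) and 3.88 (3.83 to 3.93), and it rose over both ages by 2.19 on the log2 scale (SE 0.262, limma adjusted p = 0.0163). Of the 2 other tropomyosins *Tpm4*, a form mainly of non-muscle cells, had a ratio of 0.252 (0.238 to 0.268) and 0.228 (0.215 to 0.241) and fell over both ages (log2 difference -2.06, SE 0.201, limma adjusted p = 0.0163). None of the 3 other troponins compared was past 2-fold at both ages or called.

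Of the 8 pointed-end and length regulators in the files, *Nebl* (nebulette, which binds thin filaments near the Z disc) and *Tmod3* (the widely expressed tropomodulin) were more than 2-fold lower at both ages. *Nebl* had 6960 and 10123 normalized counts in the controls and 1742 and 1687 in csPIMT-/- hearts, a ratio of 0.250 and 0.167. *Tmod3* had 3954 and 4083 in the controls and 1016 and 1692 in csPIMT-/- hearts, a ratio of 0.257 and 0.414, but after the GC trend was subtracted its ratio was 1.14 at 6 months. Of the 17 genes of barbed-end capping, severing and assembly, *Capza1* and *Capza2*, the α subunits of CapZ, were lower at both ages, with ratios of 0.197 and 0.237 and of 0.210 and 0.241. *Capzb*, the β subunit, did not go with them and had ratios of 1.01 and 1.78 (0.849 and 1.41 less the GC trend). *Cfl2*, muscle cofilin, had ratios of 0.412 and 0.449, which turned to 1.37 and 1.53 without the GC trend. *Capg*, a gelsolin relative abundant in macrophages, was higher at both ages, with 537 and 1188 normalized counts in the controls and 2860 and 3572 in csPIMT-/- hearts. Each of *Nebl*, *Tmod3*, *Capza1*, *Capza2* and *Cfl2* was called lower and *Capg* was called higher by limma, with adjusted p-values of 0.0163 to 0.0199. Less the GC trend, *Acta1* kept ratios of 3.38 and 2.41, *Tpm4* 0.371 and 0.356, *Nebl* 0.640 and 0.473 and *Capg* 3.35 and 1.87, while *Capza1* came to 0.388 and 0.532 and *Capza2* to 0.753 and 0.858. Of the 4 genes of serum response factor and its coactivators none was past 2-fold at both ages.

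**Figure D5:**
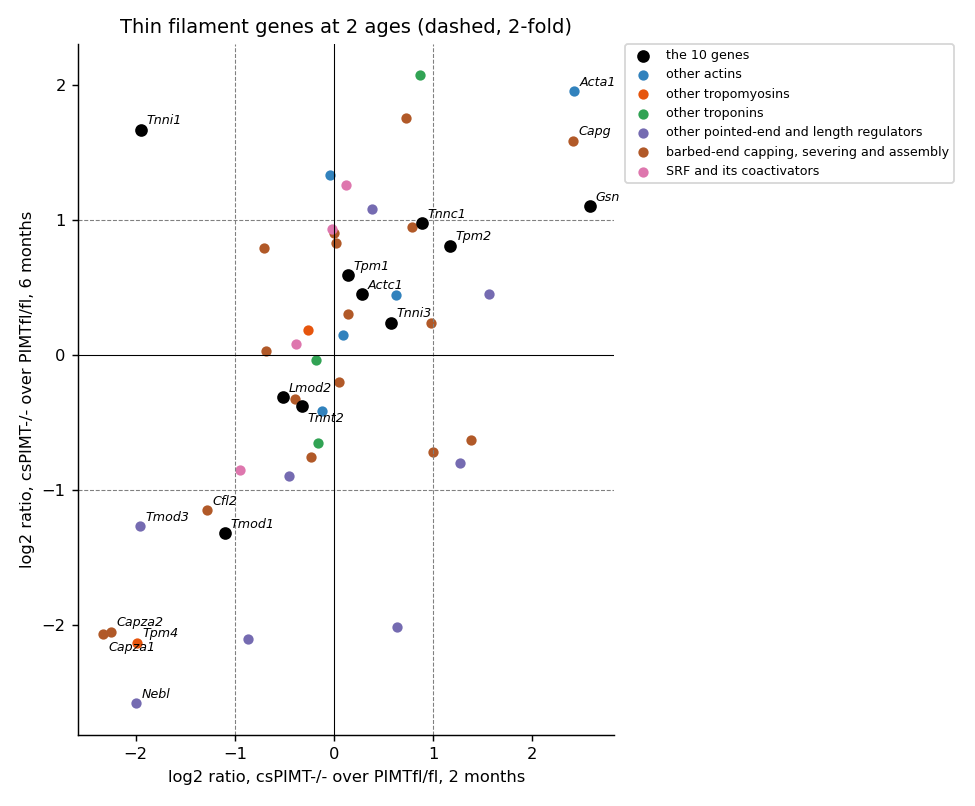
Log2 ratio of csPIMT-/- over PIMTfl/fl at 2 months (x axis) against 6 months (y axis) for the 10 genes (black) and 39 other thin filament, capping and regulatory genes, coloured by list; dashed lines mark 2-fold. *Acta1*, *Capg* and *Gsn* lie past 2-fold higher at both ages, *Tmod1* lies past 2-fold lower with *Nebl*, *Tpm4*, *Capza1*, *Capza2*, *Tmod3* and *Cfl2* (of which *Cfl2*, and *Tmod3* at 6 months, turn when the GC trend is subtracted), and *Tnni1* stands by itself at the upper left.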

How the data were processed

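Hearts of 4 groups of mice gave 1 pooled library each (directional poly(A) libraries, 50-base single reads). The authors used STAR for alignment to mm10 and htseq-count (HTSeq 0.6.1p1 in the submitters' processing notes) with UCSC gene models for counting, and then scaled the counts; DESeq2 is named without a version. The deposited signal is 1 normalized count per gene, and 100% of the values were whole multiples of the smallest value above 0 (tolerance 1e-06 reads), from 0.865 to 1.23 per read, so reads were recovered by division. For 6-month csPIMT-/- hearts the column name speaks of read counts, yet its values are not whole, and they were used as normalized. The values were set on the scale of the deposited counts.

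Ratios needed 10 reads in 1 library, with exact 95% binomial intervals. The test over both ages used limma 3.58.1 (R 4.3.3) with a mean trend on log2(value + 1), genes at 10 or more in 2 libraries and Benjamini-Hochberg adjustment. edgeR 4.0.16, DESeq2 1.42.0, TMM, pseudocounts of 0.5 and 5, no filter, no mean trend, other controls and each library left out were alternatives, as were GC and length trends (lowess, span 0.3, longest GENCODE M21 transcript, GRCm38; GC for 98.8% of genes compared). Scripts were checked on simulated data. The 10 genes and all lists were chosen with earlier results of these data known. All 10 were described; of the other lists those with 100 reads in 1 library and past 2-fold in 1 direction at both ages were named, with *Tgs1*; *Capzb* and the genes in the other observations were added after their values were seen. *Klhl40*, *Klhl41* and *Adgre1* were not found by symbol. Coordinates are those of GENCODE M21 and promoters those of RefSeq, which matched all 10 genes.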

Additional observations from a re-analysis of the deposited data

Results flagged for a closer look

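*Tnni1* differed in opposite directions at the 2 ages. Its ratio of csPIMT-/- over control was 0.258 (exact 95% counting interval 0.217 to 0.305) at 2 months and 3.19 (2.71 to 3.77) at 6 months. With 1 library per group the difference between the ages was not tested. It rests on 895 reads in the 2-month and 202 in the 6-month control and on 162 and 545 in csPIMT-/- hearts. Set against the control of the other age, each csPIMT-/- library gave the opposite direction. The ratio was then 1.12 for the 2-month csPIMT-/- library, which is near 1, and 0.732 for the 6-month library. No interval was formed for these ratios. The 7 skeletal muscle markers summed to 982, 215, 118 and 869 normalized counts in the same order of libraries, and their part in the result was not tested.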

How the results depend on the processing

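No pairing of replicates was possible because each group has 1 library. The libraries of both genotypes were matched by age alone, which is in the model of the test. Of the 10 genes at 2 months, the 2 that were more than 2-fold lower became 1 against the control of the other age, and the 2 that were higher became 1 after the GC trend or the length trend was subtracted or when libraries were scaled by cardiomyocyte markers (the last 2 chosen after seeing the data). At 6 months the 2 higher became 1 with the GC trend subtracted, the control of the other age or both controls summed, and 3 with scaling by cardiomyocyte markers, *Tnnc1* at a ratio of 2.05 being added. Between the controls the 1 higher became 0 with the length trend subtracted. Over both ages, 2595 genes were called lower and 1637 higher; with the GC trend subtracted or no mean trend of the variance these were 0 and 0, and 0 and 0 of the 10 genes, although 1822 and 2007 genes, and 3448 and 2517, had an unadjusted limma p under 0.05. Without age in the model, leaving out the 2-month control, the 6-month control, the 2-month csPIMT-/- or the 6-month csPIMT-/- library gave 1280, 366, 1739 and 1882 genes lower and 274, 363, 1082 and 659 higher, and 0 to 1 of the 10 genes lower and 0 to 1 higher. edgeR called 2521 and 1637 genes and DESeq2 2988 and 2190, both with 1 of the 10 lower and 3 higher, as did limma without age in the model. TMM scaling and no filter on low values each gave 1 lower and 2 higher of the 10, without *Tnnc1*. *Tmod1* was called in 11 of 14 settings, *Gsn* and *Tpm2* in 9 and *Tnnc1* in 6, with adjusted p-values up to 0.0951, 0.194, 0.284 and 0.291.

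With the GC trend subtracted, the *Tnni1* share was 0.788%, 0.175%, 0.238% and 0.807% (controls of 2 and 6 months, then csPIMT-/-), the *Tpm2* share 1.33%, 1.41%, 1.78% and 1.10%, and the *Acta1* share 12.2%, 16.9%, 32.1% and 31.8%. The log2 ratio of *Tnni1* was 0.17 at 2 months and -0.45 at 6 months against the control of the other age. *Cfl2* turned to 0.46, 0.61 and 0.51 (2 months, 6 months, both ages) and *Tmod3* to 0.19 at 6 months with the GC trend subtracted. The cause of these changes was not tested. Of the other values of single genes, 214 moved beyond their interval, 45 lost a call and the rest did neither. Of the 10 genes, reads were few for *Tnni1*, and for the rest of them the missing replicates, not depth, set the limit. Outside the 10, reads in csPIMT-/- hearts were also few for *Capza1* (79 and 176) and *Tgs1* (130 and 156), among others.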

Other observations

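Beyond the genes named by rule, 4 genes of the other thin filament lists were called over both ages by limma and are named after their values were seen. *Lmod3*, a leiomodin mainly of skeletal muscle, was lower in csPIMT-/- hearts, with 3895 (2 months) and 4450 (6 months) reads in the controls and 1502 and 871 in csPIMT-/- hearts (log2 difference -1.49, SE 0.346, limma adjusted p = 0.0359). *Myocd*, myocardin, the muscle coactivator of serum response factor, was lower, with ratios of 0.517 and 0.552 (log2 difference -0.90, SE 0.200, limma adjusted p = 0.0327). *Srf* itself had ratios of 0.985 and 1.90 and was not called (limma adjusted p = 0.275). *Xirp1*, an actin-binding protein of the intercalated disc, was higher, with ratios of 1.66 and 3.37 (log2 difference 1.24, SE 0.308, limma adjusted p = 0.0412). *Flii*, a gelsolin relative, was higher, with ratios of 1.73 and 1.93 (log2 difference 0.87, SE 0.201, limma adjusted p = 0.0355). Less the GC trend the ratios at 2 and 6 months were 1.12 and 1.24 for *Flii*, 1.04 and 2.10 for *Xirp1*, 0.520 and 0.537 for *Myocd*, 0.670 and 0.284 for *Lmod3* and 0.564 and 1.08 for *Srf*. In all, 12 of the 39 genes compared outside the 10 were called, 8 lower and 4 higher, beside 17.5% and 11.0% of all genes.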
